A study of Oryza sativa with 9 samples.

Results

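The comparison of rice plants carrying an RNA interference construct against OsHMGB707 (RNAi) with wild-type plants (WT) asked which leaf transcripts differ when this gene is silenced in unstressed seedlings. It rests on 6 of the 9 arrays of the series, chosen by their labels: 3 RNAi arrays and 3 WT arrays. The other 3 arrays came from plants labelled as overexpressing OsHMGB707 (OE), entered the estimate of the spread and are given beside some results. They share the WT arrays with the comparison. All arrays measured leaves of 21-day-old seedlings grown without a stress treatment, and each holds the RNA of a pool of seedlings from an independent replicate. By the study's methods the plants were of the japonica cultivar Zhonghua11. The RNAi plants carried 2 copies of a segment of the gene in the vector pTCK303 under the ubiquitin promoter, and the OE plants carried its full-length cDNA under a promoter of cauliflower mosaic virus. For the stress treatments the methods describe germination with hygromycin for transgenic seeds only. The labels do not name the RNAi line, so the 3 pools may descend from 1 transformed plant. No transformed control was among the arrays. Effects of the construct, the transformation, the selection and the silenced gene therefore cannot be told apart in any value. The leaf is a mixture of cells, in which fewer cells of a type and less RNA per cell cannot be told apart, and the p-values measure only the spread between pools.

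High mobility group box (HMGB) proteins are abundant non-histone proteins of chromatin that bind DNA through a box domain with little sequence preference and bend it. In plants they are known as architectural factors that can ease the access of transcription factors to their sites, and mutants of single family members differ from wild type in growth and stress responses.

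The targeted gene was lower on every RNAi array. OsHMGB707 (LOC4336676, chromosome 4) read 10.31, 10.43 and 10.03 on the RNAi arrays, 12.25, 12.28 and 12.37 on the arrays labelled OE and 12.39, 12.38 and 12.38 on the WT arrays, all as log2 levels. The RNAi and WT arrays did not overlap, and the WT arrays were almost level with each other. The arrays labelled OE did not read above WT at this probe set, so they are called by their label throughout and no direction is drawn from that label. OsHMGB707 fell by 2.13 on the log2 scale (SE 0.09, adjusted p = 3.85e-06) in RNAi, which is 4.38-fold lower (95% interval 3.78 to 5.07). Another, dimmer probe set for OsHMGB707 read 5.92, 6.15 and 6.37 on the RNAi arrays, 6.28, 6.28 and 6.38 on the arrays labelled OE and 6.93, 6.48 and 6.33 on the WT arrays. The groups overlapped, and its difference of -0.44 (SE 0.15, adjusted p = 0.286) did not pass the test.

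Across the array 274 of 57194 probe sets, or 0.479%, were called at an adjusted p under 0.05 (limma, two-sided). Of these, 149 (0.261%) were higher and 125 (0.219%) lower in RNAi. At more than 2-fold, 75 (0.131%) were higher and 34 (0.0594%) lower. The called rises were the larger, with a median of 1.01 and a highest value of 8.09 on the log2 scale, while the called falls had a median of -0.73 and reached 2.18. The median over all probe sets was 0.0018. On 9320 probe sets, or 16.3%, the RNAi and WT arrays did not overlap. All 149 called rises and all 125 called falls were among these, so a lack of overlap adds nothing to a call. Of the 149 rises, 44 started from a WT mean below the lower quartile of all WT levels (4.33 to 4.35), and no fold is given for them because presence calls were not used. When each of the 9 arrays was left out in turn, 107 of the 274 calls passed every time and 167 were lost at least once, and the count of calls lay between 118 without WT replicate 3 and 512 without RNAi replicate 1. It was also below the full count by over 1.5 times without RNAi replicate 2 (141) and without WT replicate 2 (139).

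RNAi arrays differed more from each other than WT arrays did, with a root mean square SD per probe set of 0.179 in RNAi and 0.127 in WT. Deviations above 1 from the group mean were counted at 95, 6 and 74 probe sets on RNAi replicates 1, 2 and 3, and at 27, 8 and 4 on WT replicates 1, 2 and 3. Leaf markers were at high levels in both groups (summed log2 level 17.14 to 17.17 in RNAi and 17.13 to 17.19 in WT), as the label says. None of 71 probe sets for markers of leaf, root, anther and pollen, panicle or seed was called, and the medians of these 5 lists lay between -0.04 and 0.05. The 3' end exceeded the 5' end of GAPDH by 1.01 to 1.08 on the RNAi arrays and by 0.89 to 0.99 on the WT arrays, and its part in the results was not tested. The same measures of actin and cyclophilin overlapped between the groups.

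**Figure D1:**
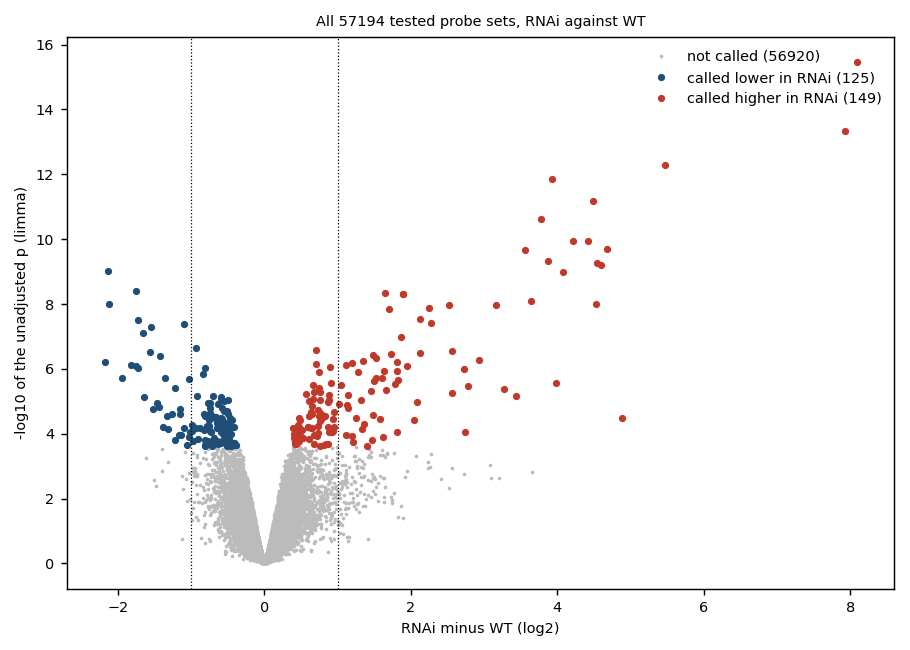
Each point is a probe set, with the RNAi minus WT difference in log2 units on the horizontal axis and minus log10 of the unadjusted limma p on the vertical axis. The 149 called rises (red) reach 8.09 and the 125 called falls (blue) reach -2.18, and dotted lines mark 2-fold.

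Several regulators of transcription and signalling were lower in RNAi. A gene (LOC_Os03g06850) that the study annotates as a B3 DNA-binding domain protein, a family of plant transcription factors, read 6.71, 6.90 and 7.19 on the RNAi arrays, 8.91, 9.54 and 8.87 on the arrays labelled OE and 9.15, 8.73 and 8.74 on the WT arrays. In RNAi it fell by 1.94 on the log2 scale (SE 0.19, adjusted p = 0.00172), or 3.84-fold lower (95% interval 2.84 to 5.19). A pair of further probe sets of the same cluster fell by 1.82 (adjusted p = 0.000891) and 1.73 (adjusted p = 0.001), and on each of the 3 the RNAi arrays lay below both other groups. All 3 calls passed whichever array was left out. LOC4326803, annotated by the study as a no apical meristem protein, which is the founding member name of the NAC transcription factors, read 4.78, 4.94 and 5.06 on the RNAi arrays, 5.21, 5.09 and 5.10 on the arrays labelled OE and 6.68, 6.55 and 6.80 on the WT arrays. Its level fell by 1.75 on the log2 scale (SE 0.09, adjusted p = 1.41e-05) in RNAi, and here the arrays labelled OE were nearly as low as the RNAi arrays.

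The histidine kinase OsHk6, one of the membrane receptors that sense cytokinin in rice, was measured by a pair of probe sets. The first read 7.21, 6.99 and 6.69 on the RNAi arrays, 8.63, 8.67 and 8.62 on the arrays labelled OE and 8.63, 8.53 and 8.71 on the WT arrays, so RNAi alone stood apart. OsHk6 fell by 1.66 on the log2 scale (SE 0.12, adjusted p = 0.00014), which is 3.15-fold lower (95% interval 2.63 to 3.78), and the second probe set fell by 1.54 on the log2 scale (SE 0.10, adjusted p = 9.41e-05). Both calls passed whichever array was left out. The cytokinin list, which was matched by symbol and does not hold these probe sets, had no call among its 36 probe sets, with a median of 0.02 and a range from -0.22 to 0.33.

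OsSPX2 encodes an SPX domain protein, of the phosphate-sensing proteins that hold back the transcription factor PHR2 when phosphate is plentiful. It read 8.08, 7.69 and 7.68 on the RNAi arrays, 9.32, 9.18 and 9.35 on the arrays labelled OE and 9.18, 9.57 and 9.40 on the WT arrays. OsSPX2 fell by 1.57 on the log2 scale (SE 0.13, adjusted p = 0.000466), or 2.96-fold lower (95% interval 2.43 to 3.61), and passed whichever array was left out. OsPT8, a high-affinity phosphate transporter, read 9.11, 9.08 and 9.06 on the RNAi arrays, against 9.39, 9.69 and 9.60 on the WT arrays. This transcript fell by 0.48 on the log2 scale (SE 0.08, adjusted p = 0.0352), and its other 2 probe sets gave -0.27 and -0.21 without a call. These were the 2 calls, both lower, among the 44 probe sets of the phosphate list (median -0.04), against 0.479% called over all probe sets. The OsPT8 call was lost without any RNAi array, WT replicate 2 or 3 or any OE array (adjusted p up to 0.19).

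Transcription factor lists held few calls. In them 1 of 7 WRKY and 1 of 16 bHLH probe sets were called lower, 1 of 14 in the DREB, CBF and ERF list was called higher, and none was called among 13 NAC, 22 bZIP and 16 MYB probe sets, against 0.479% called over all probe sets. The NAC list, matched by symbol, does not hold LOC4326803, the no apical meristem protein called lower above. OsWRKY24, a WRKY factor known as a repressor of abscisic acid and gibberellin responses in aleurone cells, read 9.03, 8.84 and 8.73 on the RNAi arrays, 10.31, 10.78 and 10.24 on the arrays labelled OE and 9.89, 9.90 and 10.26 on the WT arrays. Its reading fell by 1.15 on the log2 scale (SE 0.15, adjusted p = 0.0115). OsbHLH148, a jasmonate-linked factor of the drought response, read 8.94, 9.21 and 9.42 on the RNAi arrays, 10.90, 11.11 and 10.65 on the arrays labelled OE and 10.11, 10.17 and 10.73 on the WT arrays. In RNAi it fell by 1.14 on the log2 scale (SE 0.18, adjusted p = 0.0294). OsEATB and the study's OsDREB1C lie outside the lists and were named from the calls and from the loci of the study. OsEATB, an ERF factor known to restrict internode elongation, fell by 1.05 on the log2 scale (SE 0.19, adjusted p = 0.048). For OsDREB1C, a dehydration-responsive factor, the probe set read 5.68, 5.35 and 4.89 on the RNAi arrays, 7.65, 7.80 and 7.56 on the arrays labelled OE and 6.45, 6.45 and 6.99 on the WT arrays. Its level fell by 1.32 on the log2 scale (SE 0.20, adjusted p = 0.022). At OsDREB1C every array labelled OE was above every WT array and every RNAi array below them, and for the WRKY and bHLH genes the arrays labelled OE overlapped WT. The symbol DREB1C is also attached in the gene table to CBF1, whose probe set rose by 0.45 on the log2 scale (SE 0.07, adjusted p = 0.0244), so the probe sets given this name disagreed in sign. OsDREB1G (ERF25) read 5.56, 5.01 and 4.97 on the RNAi arrays, 7.53, 7.93 and 7.48 on the arrays labelled OE and 6.06, 5.81 and 6.52 on the WT arrays, a difference of -0.95 (SE 0.21, adjusted p = 0.103) that did not pass, and OsWRKY71 gave -0.54 (SE 0.11, adjusted p = 0.0819). These 5 calls were lost without any RNAi array, WT replicate 2 or 3 or any OE array, with at least 1 lost in each case (adjusted p up to 0.164).

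**Figure D2:**
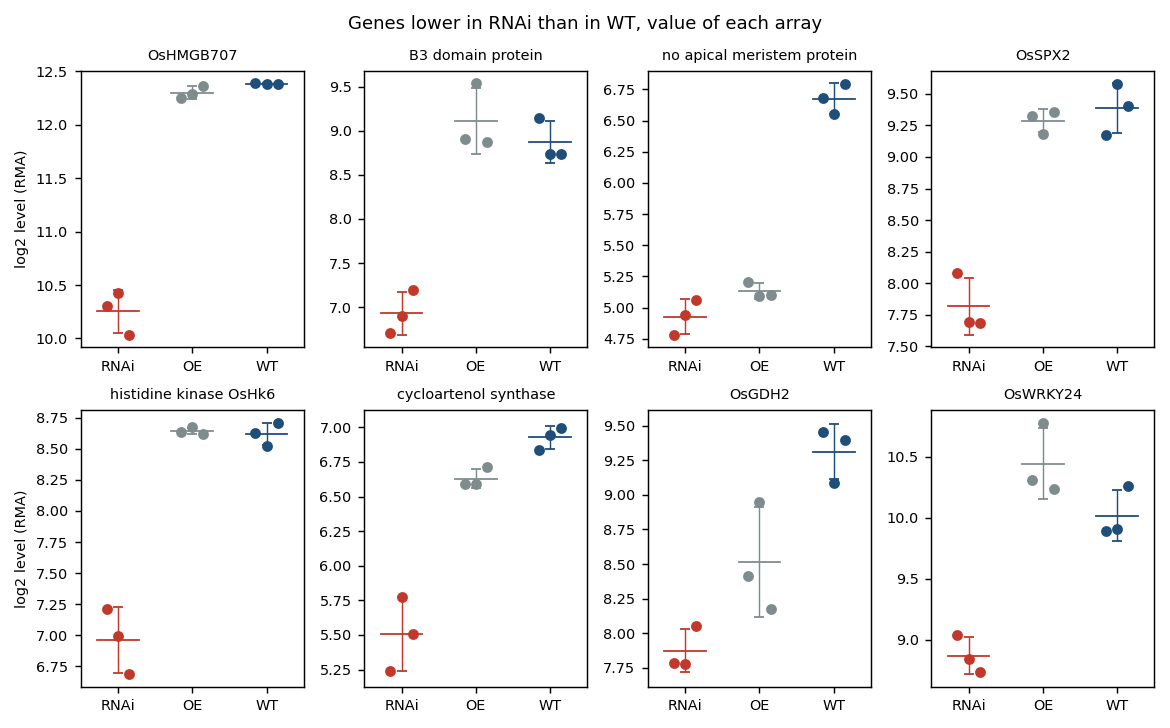
Log2 level of each array (points) with group mean (line) and SD (bars) for 8 genes called lower in RNAi, with RNAi, arrays labelled OE and WT side by side (n = 3 each). RNAi arrays lie below all WT arrays in every panel, as they do for all 125 called falls. OE lies near WT for the B3 domain protein, OsSPX2 and OsHk6 and near RNAi for the no apical meristem protein.

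Smaller falls were called for a few genes of the phosphatase, kinase and calcium lists. Over all probe sets 0.219% were called lower. The 3 called type 2C protein phosphatases, a family that includes negative regulators of abscisic acid signalling, were lower: OsPP2C61 by 0.57 (adjusted p = 0.00843), OsPP2C29 by 0.44 (adjusted p = 0.047) and OsPP2C34 by 0.43 (adjusted p = 0.0473), of 72 probe sets with a median of -0.04. OsMAP1, a mitogen-activated protein kinase, read 10.17, 10.07 and 10.11 on the RNAi arrays, against 10.58, 10.72 and 10.98 on the WT arrays. This transcript fell by 0.64 (adjusted p = 0.0401). It was the 1 call among 19 probe sets of the kinase list (median -0.09). Of 115 calcium probe sets 2 were called, the calmodulin-like gene CML4 at -0.56 (adjusted p = 0.0257) and the calcium pump OsACA7 at -0.50 (adjusted p = 0.0311). The other 2 probe sets of CML4 differed by -0.11 and -0.13.

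A calmodulin-binding protein outside the list (LOC4352495) read 8.55, 8.70 and 8.55 on the RNAi arrays, against 9.44, 9.69 and 9.78 on the WT arrays. Its reading fell by 1.03 on the log2 scale (SE 0.10, adjusted p = 0.00173), with the call kept whichever array was left out. Single falls were also called for the formin OsFH16, which nucleates actin (-0.59, adjusted p = 0.0133), the ABC transporter OsPDR9 (-0.58, adjusted p = 0.0209), the argonaute OsAGO17 (-0.60, adjusted p = 0.0432), the replication helicase subunit OsMCM2 (-0.41, adjusted p = 0.0452) and the GRAS protein CIGR1 (-0.45, adjusted p = 0.0499). Calls of the phosphatases, kinase, calcium genes and these 5 genes were each lost without at least 1 array, among them any RNAi array, any WT array or any OE array (adjusted p up to 0.221).

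Metabolic enzymes and transporters were the second group of named falls. OsGDH2, a glutamate dehydrogenase at the meeting point of carbon and nitrogen metabolism, read 7.79, 7.78 and 8.05 on the RNAi arrays, 8.42, 8.95 and 8.17 on the arrays labelled OE and 9.46, 9.09 and 9.39 on the WT arrays. In RNAi it fell by 1.44 on the log2 scale (SE 0.18, adjusted p = 0.00777), or 2.71-fold lower (95% interval 2.05 to 3.59), while its other 2 probe sets gave -0.68 and -0.46 without a call. It was the 1 call among 28 nitrogen probe sets (median -0.03), against 0.479% called over all probe sets. The gene annotated as cycloartenol synthase (LOC4328254), the enzyme that opens plant sterol synthesis, read 5.24, 5.78 and 5.51 on the RNAi arrays, 6.59, 6.59 and 6.71 on the arrays labelled OE and 6.84, 6.95 and 7.0 on the WT arrays. Its level fell by 1.42 on the log2 scale (SE 0.12, adjusted p = 0.000545), or 2.67-fold lower (95% interval 2.22 to 3.22), and the call was kept whichever array was left out. A second probe set of this gene gave -0.60 (adjusted p = 0.0968), and another gave 0.13.

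A MATE efflux protein (LOC4336717) read 7.31, 6.80 and 6.56 on the RNAi arrays, against 8.35, 8.34 and 8.54 on the WT arrays. This transcript fell by 1.52 on the log2 scale (SE 0.20, adjusted p = 0.00867). The low-affinity cation transporter of the study's annotation read 4.91, 5.28 and 5.61 on the RNAi arrays, 5.30, 5.57 and 4.94 on the arrays labelled OE and 6.88, 6.76 and 7.08 on the WT arrays, where the arrays labelled OE were as low as RNAi. Its reading fell by 1.64 on the log2 scale (SE 0.19, adjusted p = 0.00481), or 3.11-fold lower (95% interval 2.32 to 4.19). OsTPP1, a trehalose-6-phosphate phosphatase, was lower by 1.21 (adjusted p = 0.039), with the arrays labelled OE above WT (8.39, 7.99 and 7.37 in RNAi, 9.95, 10.03 and 10.03 in OE and 8.97, 9.14 and 9.27 in WT). OsGL1-6, of the WAX2 family of cuticular wax genes, fell by 1.09 (adjusted p = 0.0215), and a family 8 glycosyltransferase (LOC4349343) by 1.26 (adjusted p = 0.0112). Of 3 peroxidase loci that the study names, LOC_Os07g48020 read 10.05, 10.04 and 10.54 on the RNAi arrays, against 11.43, 11.44 and 11.23 on the WT arrays. In RNAi it fell by 1.15 on the log2 scale (SE 0.15, adjusted p = 0.00867). The differences of LOC_Os07g48010, at -1.40 (adjusted p = 0.113), and LOC_Os02g14430, at -1.50 (adjusted p = 0.144), did not pass. The arrays labelled OE averaged -0.70 from WT at LOC_Os07g48010 and -1.58 at LOC_Os02g14430, against 0.01 at LOC_Os07g48020. The fall at LOC_Os02g14430 was thus not particular to RNAi. In RNAi LOC_Os07g48010 and LOC_Os02g14430 were over 2-fold lower (2.64-fold and 2.83-fold). Their RNAi and WT arrays did not overlap, as on 16.3% of all probe sets. The study's methods count genes by a 2-fold change and name no p-value threshold, so its criterion differs from the one used here. The MATE, OsTPP1, OsGL1-6, glycosyltransferase, peroxidase and OsGDH2 calls were lost without RNAi replicate 2, any WT array or any OE array, with at least 1 lost in each case (adjusted p up to 0.201).

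Further falls were called outside the lists. OsVTE2-1, the homogentisate phytyltransferase of tocopherol synthesis, was lower on a pair of its 6 probe sets, by 0.69 (adjusted p = 0.0336) and 0.54 (adjusted p = 0.0172), and the others gave values from -0.53 to -0.11 without a call. OsRIBA2, of riboflavin synthesis, read 9.28, 9.29 and 9.37 on the RNAi arrays, against 9.81, 9.78 and 10.03 on the WT arrays. Its level fell by 0.56 (adjusted p = 0.0184). The calls were lost without RNAi replicate 2 or 3, any WT array or OE replicate 1 or 3, with at least 1 lost in each case (adjusted p up to 0.177). The largest fall of all was in a prefoldin gene (LOC4341009), of a chaperone for newly made actin and tubulin, at 3.95, 4.59 and 3.79 on the RNAi arrays, against 6.14, 6.47 and 6.25 on the WT arrays. This transcript fell by 2.18 on the log2 scale (SE 0.19, adjusted p = 0.000769). LOC4324297, which encodes an RNA recognition motif protein, fell by 1.22 on the log2 scale (SE 0.13, adjusted p = 0.00295). The arrays labelled OE were low there as well, at 7.02, 6.84 and 7.41, with a mean difference from WT of -0.93. The calls of the prefoldin gene and LOC4324297 were kept whichever array was left out.

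Among regulators that were higher in RNAi, the largest rise was in OsDOF7 (LOC4328903, chromosome 2), a DOF zinc finger transcription factor. It read 7.18, 7.04 and 7.56 on the RNAi arrays, 7.89, 7.68 and 7.45 on the arrays labelled OE and 4.07, 3.47 and 3.32 on the WT arrays. OsDOF7 rose by 3.64 on the log2 scale (SE 0.20, adjusted p = 2.33e-05), and the arrays labelled OE were high as well. The probe set given as OsJAZ2, a repressor of jasmonate responses, read 7.55, 6.76 and 7.0 on the RNAi arrays, 9.05, 9.55 and 10.09 on the arrays labelled OE and 3.11, 4.51 and 3.85 on the WT arrays. Its reading rose by 3.28 on the log2 scale (SE 0.36, adjusted p = 0.00308). It is shared between similar sequences (suffix _s_at), and the study's annotation places it at a locus on another chromosome, so its identity is uncertain. The other probe set of OsJAZ2 gave -0.30 (adjusted p = 0.782). The rise was the 1 call among 43 jasmonate probe sets (median -0.06), against 0.479% called over all probe sets. In that list OsJAZ13 gave -1.11 (SE 0.31, adjusted p = 0.183) and OsJAZ4 -0.56 (SE 0.16, adjusted p = 0.185). An NF-Y subunit, of the trimeric factor that binds CCAAT boxes, read 6.57, 6.38 and 6.38 on the RNAi arrays, 7.99, 7.67 and 7.89 on the arrays labelled OE and 4.62, 4.62 and 5.25 on the WT arrays. In RNAi it rose by 1.61 on the log2 scale (SE 0.16, adjusted p = 0.00172), or 3.05-fold higher (95% interval 2.38 to 3.92). The NF-Y and DOF lists, matched by symbol, do not hold the probe sets given here for the NF-Y subunit and OsDOF7. No probe set was called among 11 of NF-Y (from -0.09 to 0.19) and 5 of DOF (from 0.02 to 0.17). OsMADS27, a MADS-box factor of nitrate-dependent root growth, read 5.74, 5.71 and 5.83 on the RNAi arrays, 6.30, 6.08 and 6.47 on the arrays labelled OE and 4.77, 4.88 and 4.88 on the WT arrays. Its level rose by 0.91 on the log2 scale (SE 0.10, adjusted p = 0.00227), or 1.89-fold higher (95% interval 1.63 to 2.19). OsMADS27 was the 1 call of 40 MADS probe sets, against 0.479% called over all probe sets. All 4 calls were kept whichever array was left out.

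The cell wall list had 1 call of 109 probe sets (0.917%) and the auxin list 1 of 79, both higher in RNAi. Over all probe sets 0.479% were called. Other genes of wall protein, lipase and lipid transfer families lie outside the lists and were named from the calls or the study's annotation. POEI11 (LOC4348119), of the pollen Ole e I and extensin family of wall proteins, read 10.40, 8.35 and 8.69 on the RNAi arrays, 3.42, 3.34 and 3.27 on the arrays labelled OE and 5.93, 3.60 and 3.25 on the WT arrays. This transcript rose by 4.89 on the log2 scale (SE 0.68, adjusted p = 0.0134), and its second probe set by 3.99 on the log2 scale (SE 0.42, adjusted p = 0.00227). WT replicate 1 stood above the other WT arrays, but below every RNAi array. A further Ole e I family gene (LOC4332232) read 9.07, 7.60 and 6.93 on the RNAi arrays, 4.93, 4.75 and 4.53 on the arrays labelled OE and 5.40, 5.16 and 4.84 on the WT arrays. Its reading rose by 2.73 on the log2 scale (SE 0.43, adjusted p = 0.0251), while its 2 other probe sets gave 0.05 and -0.01. A GDSL lipase (LOC4331137), of a family of acylhydrolases that includes cutin enzymes, read 9.43, 7.90 and 8.25 on the RNAi arrays, 4.50, 5.06 and 4.35 on the arrays labelled OE and 5.72, 4.54 and 5.02 on the WT arrays. In RNAi it rose by 3.43 on the log2 scale (SE 0.40, adjusted p = 0.00449), or 10.8-fold higher (95% interval 5.84 to 20). In these 3 genes RNAi alone was high, with replicate 1 the highest array, and the arrays labelled OE averaged below WT.

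The expansin OsEXP5, a loosening protein of the wall, read 7.57, 7.26 and 7.26 on the RNAi arrays, against 6.84, 6.56 and 6.49 on the WT arrays. Its level rose by 0.73 on the log2 scale (SE 0.12, adjusted p = 0.0273), or 1.66-fold higher (95% interval 1.39 to 1.99), as the call of the cell wall list (median 0.04). The auxin efflux carrier OsPIN3a rose by 0.60 (adjusted p = 0.0212), as the call of the auxin list (median -0.0041). A gibberellin-regulated GASA family gene, GASR4, rose by 1.21 (adjusted p = 0.0416) and a xylem cysteine proteinase (LOC4330517) by 1.41 (adjusted p = 0.0499). LTPL146 (LOC4349331), a lipid transfer family protein, read 4.84, 4.51 and 4.92 on the RNAi arrays, against 3.83, 3.70 and 3.58 on the WT arrays. This transcript rose by 1.05 on the log2 scale (SE 0.11, adjusted p = 0.00251). For the calls of OsEXP5, OsPIN3a, GASR4, the proteinase, LOC4332232 and the first POEI11 probe set, at least 1 was lost without RNAi replicate 2 or 3, any WT array or any OE array (adjusted p up to 0.181).

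Further wall and hormone genes had large differences that did not pass the test. The expansin OsEXP7 read 9.82, 8.71 and 8.10 on the RNAi arrays, against 8.14, 6.88 and 6.66 on the WT arrays, a difference of 1.65 (SE 0.45, adjusted p = 0.175), and the peroxidase PRX74 read 9.69, 8.20 and 8.24 on the RNAi arrays, against 7.73, 6.16 and 6.48 on the WT arrays, a difference of 1.92 (SE 0.46, adjusted p = 0.132). The endoglucanase OsCel9E gave 1.39 (SE 0.44, adjusted p = 0.238) and the auxin response gene IAA31 gave 0.93 (SE 0.26, adjusted p = 0.18). In each of the 4 genes replicate 1 was the highest array of its group, in RNAi and in WT.

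**Figure D3:**
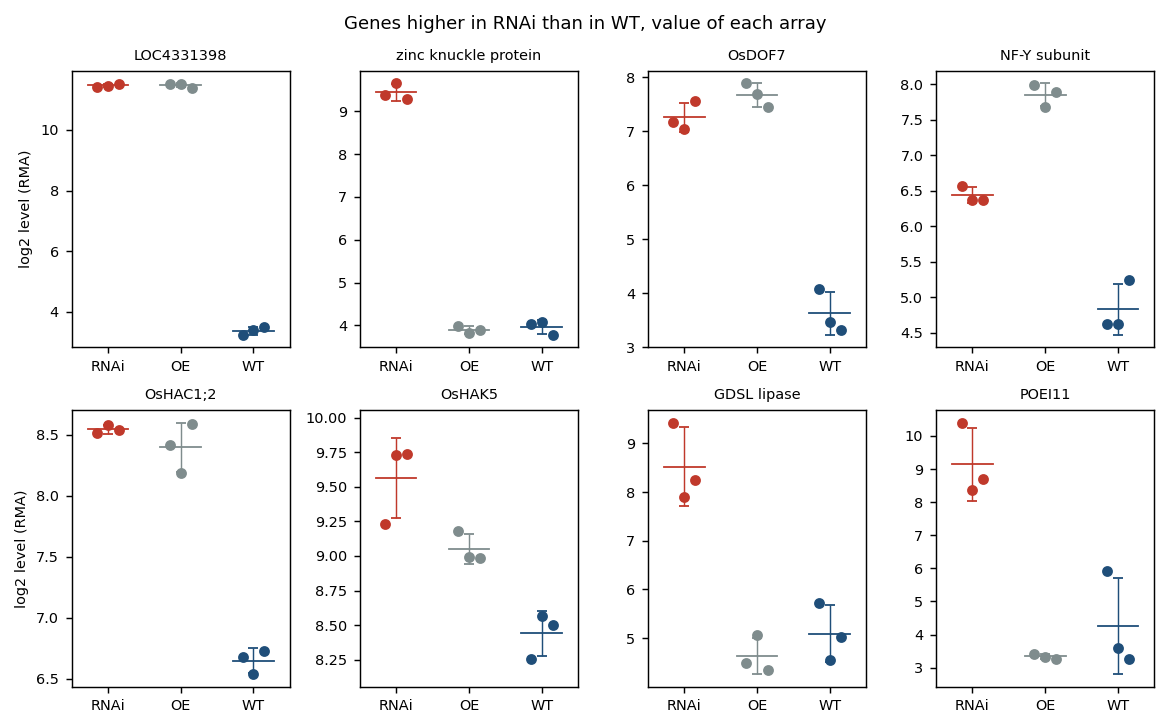
Log2 level of each array (points) with group mean (line) and SD (bars) for 8 genes called higher in RNAi, with RNAi, arrays labelled OE and WT side by side (n = 3 each). OE is as high as RNAi for LOC4331398, OsDOF7 and OsHAC1;2 and near WT for the zinc knuckle protein, and RNAi replicate 1 is the highest RNAi array for the GDSL lipase and POEI11.

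Nutrient transport gave 1 called rise. OsHAK5, a high-affinity potassium transporter, read 9.23, 9.73 and 9.73 on the RNAi arrays, 9.18, 8.99 and 8.99 on the arrays labelled OE and 8.26, 8.56 and 8.50 on the WT arrays. Its reading rose by 1.12 on the log2 scale (SE 0.14, adjusted p = 0.00677), or 2.18-fold higher (95% interval 1.76 to 2.7), and the call was kept whichever array was left out, but a second probe set given for this gene differed by -0.10 (adjusted p = 0.618). It was the 1 call of 33 potassium and sodium probe sets (median 0.01), against 0.479% called over all probe sets. OsHAC1;2 (LOC4335304), an arsenate reductase with a rhodanese-like domain, was higher on all 3 of its probe sets. The brightest read 8.49, 8.72 and 8.64 on the RNAi arrays, against 6.80, 6.70 and 6.94 on the WT arrays. In RNAi it rose by 1.81 on the log2 scale (SE 0.17, adjusted p = 0.00117), and the other probe sets rose by 1.90 (adjusted p = 1.49e-05) and 1.45 (adjusted p = 0.00341).

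The metal list had no call among 56 probe sets (median -0.03), and its 3 largest differences were OsNAS1, OsNramp1 and OsNAS2. The metal transporter OsNramp1 read 9.50, 10.06 and 10.53 on the RNAi arrays, 9.43, 9.92 and 10.43 on the arrays labelled OE and 8.89, 8.07 and 8.12 on the WT arrays, a difference of 1.67 (SE 0.32, adjusted p = 0.0682). OsNAS1 and OsNAS2 encode nicotianamine synthases, which make an iron chelator, and OsIRO2 is a bHLH regulator of iron uptake. OsNAS1 read 4.81, 8.43 and 7.31 on the RNAi arrays, against 5.96, 4.81 and 4.09 on the WT arrays, a difference of 1.90 (SE 0.80, adjusted p = 0.372), with RNAi replicate 1 within the WT range and replicates 2 and 3 above it. OsNAS2 read 6.29, 8.22 and 7.35 on the RNAi arrays, against 6.25, 5.58 and 5.39 on the WT arrays, a difference of 1.55 (SE 0.40, adjusted p = 0.157). OsIRO2 read 8.57, 9.01 and 9.37 on the RNAi arrays, 8.47, 8.78 and 8.96 on the arrays labelled OE and 8.31, 8.11 and 8.17 on the WT arrays, a difference of 0.78 (SE 0.19, adjusted p = 0.127). Without RNAi replicate 1 the adjusted p was 0.0321 for OsNramp1, 0.0187 for OsNAS2 and 0.0261 for OsIRO2, so that these 3 then passed. That array was the lowest RNAi array for each of them, so leaving it out was bound to widen their differences. Calls over all probe sets also rose from 274 to 512 without it. OsNramp1 also passed without WT replicate 1 (0.048). OsNAS1 did not pass whichever array was left out (lowest adjusted p 0.0524).

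**Figure D4:**
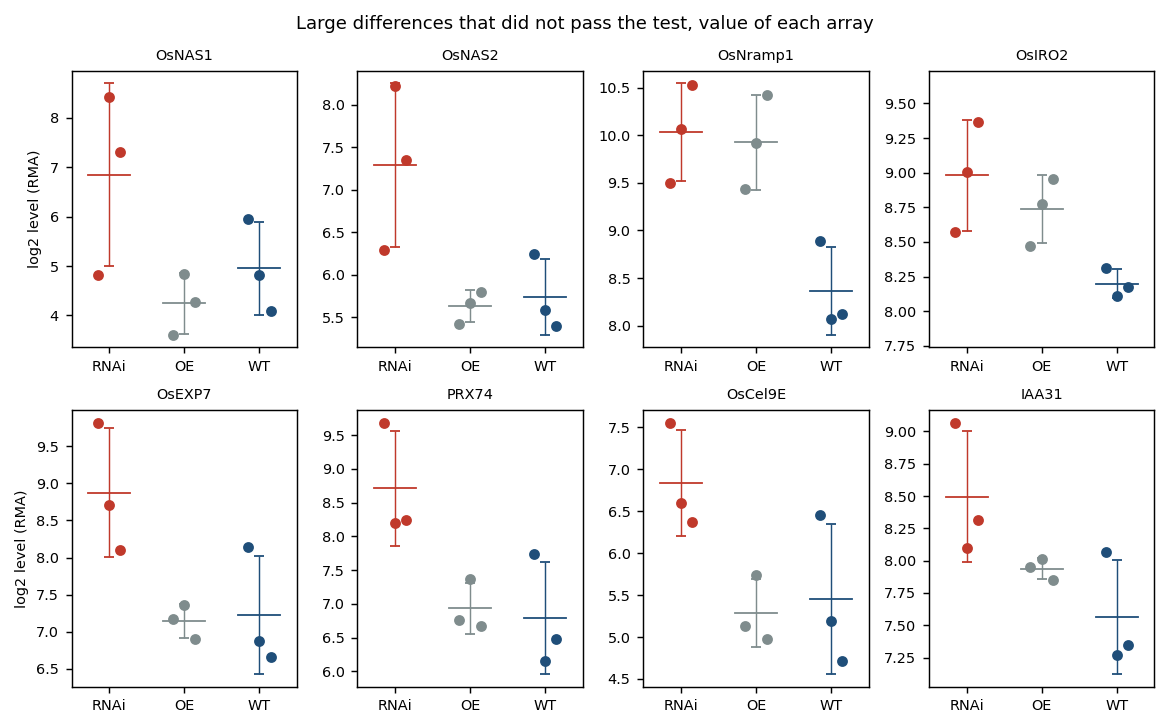
Log2 level of each array (points) with group mean (line) and SD (bars) for 8 iron, wall and hormone genes with large differences that did not pass the test, with RNAi, arrays labelled OE and WT side by side (n = 3 each). RNAi replicate 1 (left point) is the lowest RNAi array for the 4 iron genes and the highest for the 4 others.

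The largest rise of all and several others over 3 log2 units were in transcripts without a known role, and the arrays labelled OE were high in some of them and near WT in others. LOC4331398 (chromosome 3) read 11.42, 11.46 and 11.51 on the RNAi arrays, 11.52, 11.50 and 11.39 on the arrays labelled OE and 3.24, 3.40 and 3.49 on the WT arrays. Its level rose by 8.09 on the log2 scale (SE 0.08, adjusted p = 1.96e-11), the largest difference on the array, and a second probe set rose by 7.93 (adjusted p = 1.34e-09). Both transgenic groups were at the same high level, and the WT mean was under the lower quartile. LOC4342716 read 8.67, 8.44 and 8.78 on the RNAi arrays, 8.43, 8.64 and 9.0 on the arrays labelled OE and 4.34, 4.38 and 4.93 on the WT arrays. This transcript rose by 4.08 on the log2 scale (SE 0.18, adjusted p = 3.89e-06). A probe set without a listed gene read 7.65, 8.02 and 8.23 on the RNAi arrays, 9.68, 10.30 and 9.63 on the arrays labelled OE and 3.60, 3.24 and 3.28 on the WT arrays. Its reading rose by 4.60 on the log2 scale (SE 0.20, adjusted p = 2.84e-06). In both the transgenic arrays lay above every WT array. LOC9268613 rose by 4.68 (adjusted p = 1.22e-06) and 3.56 (adjusted p = 1.22e-06) on a pair of probe sets, and the first read 8.28, 8.44 and 8.56 on the RNAi arrays, 8.75, 8.45 and 8.02 on the arrays labelled OE and 3.86, 3.90 and 3.48 on the WT arrays. All the calls in this group were kept whichever array was left out.

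In other transcripts the arrays labelled OE lay near WT. The gene that the study annotates as a zinc knuckle protein read 9.38, 9.65 and 9.28 on the RNAi arrays, 3.99, 3.81 and 3.89 on the arrays labelled OE and 4.02, 4.08 and 3.78 on the WT arrays. In RNAi it rose by 5.48 on the log2 scale (SE 0.11, adjusted p = 9.77e-09), and a second probe set rose by 3.93 (adjusted p = 1.96e-08). Os09g0463800, a conserved hypothetical protein in the study's annotation, read 8.12, 7.77 and 8.15 on the RNAi arrays, 3.72, 3.57 and 3.62 on the arrays labelled OE and 3.72, 3.51 and 3.36 on the WT arrays. Its level rose by 4.48 on the log2 scale (SE 0.12, adjusted p = 7.66e-08). Os02g0772100, of the same annotation, read 7.66, 8.10 and 8.16 on the RNAi arrays, 4.60, 4.25 and 4.03 on the arrays labelled OE and 4.01, 4.13 and 4.18 on the WT arrays. This transcript rose by 3.87 on the log2 scale (SE 0.16, adjusted p = 2.46e-06). A further probe set without a listed gene read 7.97, 8.33 and 7.82 on the RNAi arrays, 4.67, 4.67 and 4.76 on the arrays labelled OE and 4.24, 4.35 and 4.22 on the WT arrays. Its reading rose by 3.77 on the log2 scale (SE 0.11, adjusted p = 2.26e-07). Within each of these 4 the RNAi arrays lay within 1 log2 unit of each other and over 3 units above WT. A pair of loci annotated as microneme protein Sm70, a name taken from a protozoan protein, were higher as well. LOC4327161 read 7.43, 6.31 and 6.29 on the RNAi arrays, 3.57, 3.73 and 3.68 on the arrays labelled OE and 3.84, 3.84 and 3.58 on the WT arrays. In RNAi it rose by 2.93 on the log2 scale (SE 0.25, adjusted p = 0.000723), and the other locus rose by 1.20 (adjusted p = 0.000807). All the calls named here were kept whichever array was left out.

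Several transposon-related transcripts differed, most of them higher in RNAi. Because these descriptions were picked by the study from the same arrays, their count gives no independent evidence of a direction. Of 15 probe sets with such a description, 10 were called higher and 2 lower. Among the 149 probe sets with any description from the study 50 were called higher and 30 lower, against 0.261% and 0.219% over all probe sets. Of the 10 rises, 4 started from a WT mean under the lower quartile. The rises ran from 1.01 to 4.55. A Ty3-gypsy retrotransposon probe set read 7.88, 7.84 and 7.68 on the RNAi arrays, 7.46, 6.60 and 7.10 on the arrays labelled OE and 3.39, 3.0 and 3.36 on the WT arrays. Its level rose by 4.55 on the log2 scale (SE 0.19, adjusted p = 2.55e-06), with the arrays labelled OE high as well. A Mariner-type transposon read 7.47, 6.93 and 6.01 on the RNAi arrays, 4.38, 4.15 and 4.47 on the arrays labelled OE and 4.27, 4.15 and 4.31 on the WT arrays. This transcript rose by 2.56 on the log2 scale (SE 0.29, adjusted p = 0.00376), with the arrays labelled OE near WT. Of 3 Pong-type transposons, LOC4350282 rose by 2.12 (adjusted p = 0.000493), LOC4326189 by 1.81 (adjusted p = 0.00076) and LOC_Os12g07180 by 1.63 (adjusted p = 0.00118). A further 3 probe sets of an unclassified retrotransposon cluster rose by 1.74 to 2.27 and carry suffixes or cluster numbers that mark related sequences, so they may measure the same transcripts.

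Against these rises, a retrotransposon gene (LOC4333427, chromosome 3) read 7.39, 7.21 and 7.06 on the RNAi arrays, 8.30, 8.33 and 8.22 on the arrays labelled OE and 9.04, 9.08 and 8.73 on the WT arrays. Its reading fell by 1.73 on the log2 scale (SE 0.11, adjusted p = 6.26e-05), or 3.32-fold lower (95% interval 2.79 to 3.94). The next gene in the reference order, LOC4333426, fell by 0.92 on the log2 scale (SE 0.11, adjusted p = 0.00443). A Ty1-copia element read 4.33, 3.95 and 3.67 on the RNAi arrays, 6.48, 6.39 and 6.39 on the arrays labelled OE and 5.28, 5.36 and 5.36 on the WT arrays. In RNAi it fell by 1.35 on the log2 scale (SE 0.14, adjusted p = 0.00172). In it the arrays labelled OE were above every WT array. The unclassified retrotransposon of LOC_Os03g19600 was the 1 of the 12 calls lost when an array was left out, without RNAi replicate 1 or 3, WT replicate 2 or 3 or any OE array (adjusted p up to 0.187).

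Loci that the study names as higher in OE plants than in WT included several without a difference between RNAi and WT here. OsHsp16.9A, a small heat shock protein, read 6.93, 6.75 and 6.42 on the RNAi arrays, 8.06, 7.80 and 8.23 on the arrays labelled OE and 6.73, 6.89 and 6.70 on the WT arrays, a difference of -0.07 (SE 0.14, adjusted p = 0.876). The ERF factor LOC4330193 gave -0.03 (SE 0.15, adjusted p = 0.955), with a 95% interval from -0.37 to 0.31. A flavonol sulfotransferase (LOC4345032) gave -0.03 (SE 0.14, adjusted p = 0.953), with an interval from -0.33 to 0.27. A DnaJ chaperone (LOC4324218) gave 0.16 (SE 0.15, adjusted p = 0.717), with an interval from -0.18 to 0.50. All 4 overlapped between RNAi and WT, while the arrays labelled OE read above both groups. Other loci that the study names as higher in OE plants are given above. Of these OsDOF7 rose by 3.64 in RNAi, OsDREB1C was called lower and the fall of OsDREB1G did not pass. The study also measured selected genes by quantitative PCR and reports several of them as lower in RNAi lines.

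Read by pathway, calls were few. The 44 gene lists with members held 1629 probe sets, of which 6 were called higher and 17 lower, or 1.41% against 0.479% over all probe sets. Both lists and genes were chosen with earlier results known, so nothing is read from that gap. In 25 lists no probe set was called, and 19 held at least 1 call. The 23 calls became 4 when WT replicate 3 was left out, 7 for WT replicate 2, 8 for RNAi replicate 2, 12 for RNAi replicate 3 and 10 for OE replicate 1. List medians lay between -0.24 (WRKY factors, 7 probe sets) and 0.15 (bHLH factors, 16 probe sets). Photosynthesis genes had a median of -0.03 over 45 probe sets, of which PORA, a protochlorophyllide reductase, differed most, by -0.88 (SE 0.18, adjusted p = 0.086). Ribosome and translation genes had a median of -0.03 over 51, heat shock genes -0.04 over 66 and chromatin genes -0.05 over 20. Diterpenoid phytoalexin genes had a median of 0.14 over 23 probe sets, with CYP71Z7 at 0.69 (SE 0.38, adjusted p = 0.489) and its 3 RNAi arrays spread over 10.05, 10.79 and 11.65. The ABA and dehydrin list had its largest difference in LEA19, at -1.12 (SE 0.76, adjusted p = 0.595), where RNAi and WT overlapped.

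**Figure D5:**
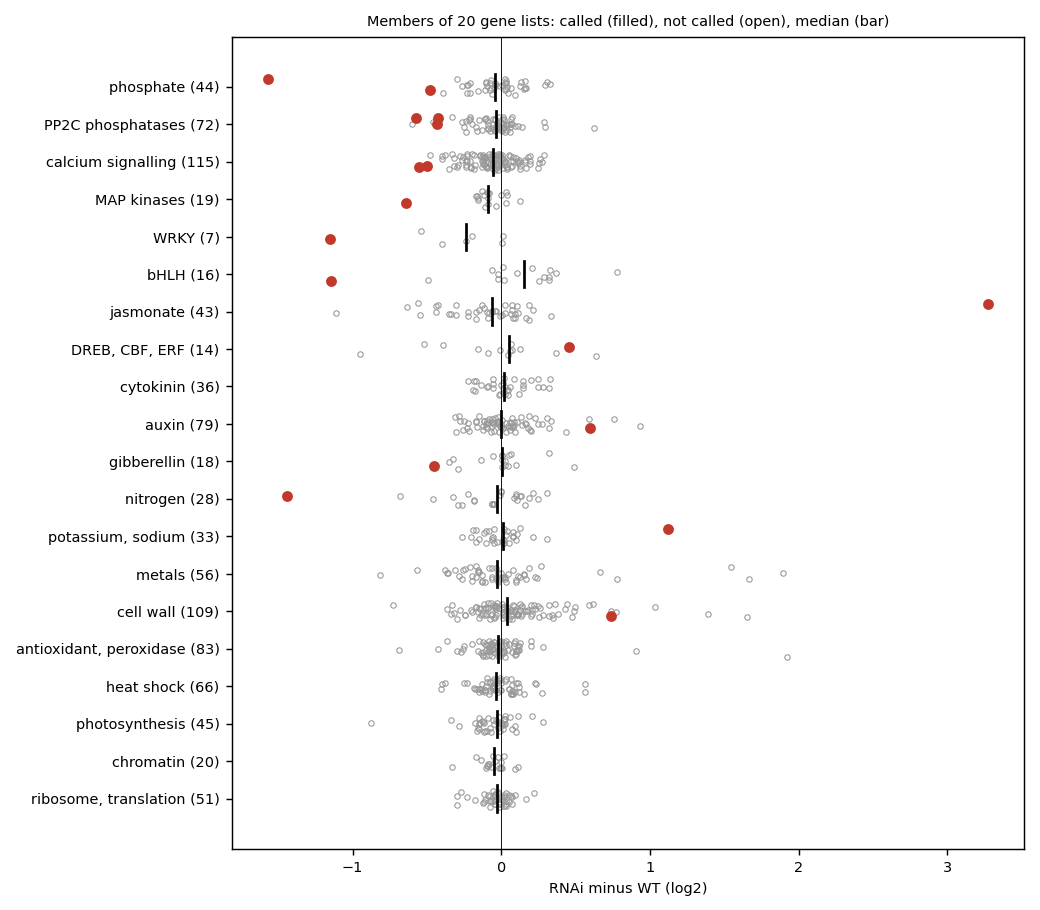
RNAi minus WT difference in log2 units (horizontal axis) for each member of 20 gene lists, with the number of probe sets in brackets, called members filled, others open and the median as a bar. Medians lie near 0 in every list, and called members number 0 to 3 a list, among them OsSPX2 (phosphate, -1.57) and the probe set given as OsJAZ2 (jasmonate, 3.28).

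Along the genome, the 133 called probe sets with a single listed gene came from 121 genes of 17903 measured, or 0.676%. Chromosome 2 held 24 of them (1.13% of its measured genes), chromosome 11 held 9 (1.06%) and chromosome 10 held 9, whereas chromosomes 8 and 9 held 1 each (0.0829% and 0.104%). In the reference gene order 8 pairs of called genes lay within 10 places of each other, of which only LOC4333426 and LOC4333427 were next to each other. OsDOF7, which rose, and LOC4328907, which fell by 1.34 on the log2 scale (SE 0.18, adjusted p = 0.0123), lay 6 places apart on chromosome 2. LOC4328907 read 5.81, 5.68 and 5.15 on the RNAi arrays, 7.74, 7.91 and 7.96 on the arrays labelled OE and 7.14, 6.56 and 6.95 on the WT arrays, and its call was lost without WT replicate 3 (adjusted p = 0.0803). OsEXP5 and LOC4330703, which both rose, lay 4 places apart on the same chromosome. Of the 41 called genes with more than 1 probe set, 6 were called on all of them.

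The 40 probe sets with the largest SD among the RNAi arrays held no call. That spread also enters the test, so the lack of calls largely follows from how they were picked. LOC4347708 read 5.71, 9.22 and 10.95 on the RNAi arrays, against 7.98, 7.02 and 8.27 on the WT arrays, and LOC4347709 read 5.99, 7.98 and 10.13 on the RNAi arrays, against 6.68, 5.49 and 7.72 on the WT arrays. Os9bglu30, a beta-glucosidase gene, read 5.03, 7.11 and 8.48 on the RNAi arrays, against 5.58, 5.98 and 5.58 on the WT arrays, a difference of 1.16 (SE 0.75, adjusted p = 0.574). LOC9270481 read 10.28, 6.91 and 9.75 on the RNAi arrays, against 5.48, 5.64 and 6.54 on the WT arrays. In the first 3 of these genes RNAi replicate 1 was the lowest and replicate 3 the highest RNAi array, while LOC9270481 was highest on replicate 1 and did not overlap with WT.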

How the data were processed

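Total RNA from leaves was hybridised to the Affymetrix rice array, 1 array per pool of seedlings. The deposited values are log2 levels that the authors made by RMA (background correction, quantile normalization and summary per probe set). The version and the annotation behind it are not given in the sources used here. The array files hold no depth, so the number of arrays limits the precision. Of 57381 probe sets, 57194 were tested after 187 for controls and reporters had been dropped.

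All 9 arrays entered a linear model, with a mean for each of the 3 groups, in limma 3.58.1 (lmFit and eBayes, R 4.3.3), leaving 6 residual degrees of freedom. Differences are RNAi minus WT on the log2 scale, p-values are two-sided, Benjamini-Hochberg adjustment ran over all tested probe sets, and calls were made at an adjusted p under 0.05. No fold is given where either mean was below the WT lower quartile. The code was tested on simulated data.

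Genes came from the platform annotation and the RefSeq gene table (22436 probe sets with 1 gene, 95 with several and 34663 with none), and locus descriptions came from the study's own table, which was chosen on these samples. Of 93 study loci with a listed gene, 88 lay on the same chromosome as that gene. The members and lists were chosen with earlier results of these data known. The rule for naming covered the targeted gene, and the 15 named genes and the 12 probe sets of largest called change in each direction. It also covered up to 4 members of each list, loci the study names and called members of families it describes. Not all of these are described above. Left out among the largest calls were LOC_Os12g21784 (-2.12, adjusted p = 2.49e-05), LOC_Os02g34470 (-1.75, adjusted p = 0.000909) and LOC4340325 (4.41, adjusted p = 8.19e-07). These calls were kept whichever array was left out. Other called genes were added after their values were seen. Same-numbered RNAi and WT arrays had deviations that correlated at 0.108, 0.0283 and 0.116, so the replicate numbers were not used as pairs. Alternatives changed the arrays in the fit, the scaling, the filter, the moderation, the array weights and the replicate block.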

Additional observations from a re-analysis of the deposited data

Results flagged for a closer look

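A signal stood outside the main measurement, among the 64 probe sets that the array carries for vector and reporter genes and that entered no comparison. A single one of them read 10.40, 11.77 and 10.06 on the RNAi arrays, 13.23, 12.94 and 13.48 on the arrays labelled OE and 4.15, 4.15 and 4.22 on the WT arrays, which is 6.57 higher in RNAi than in WT on the log2 scale. The transgenic arrays did not overlap with WT. The other 63 differed between RNAi and WT by at most 0.37. Which transgene sequence this probe set reads was not analysed here.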

How the results depend on the processing

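OsHMGB707 stayed called in every alternative, with differences from -2.22 to -2.02, and no call reversed its direction in any of them. The number of calls depended on the settings. With the RNAi and WT arrays alone 167 probe sets were called (148 of the 274), 63 of them lower, and 8 in the gene lists. With the replicate number as a block there were 209 calls (178 of the 274), of which 71 were lower and 10 in the lists. The balance of 149 rises to 125 falls turned round over probe sets at or above the median level, with 77 higher (38 of them over 2-fold) and 115 lower, and with arrays centred on the median, with 149 higher and 157 lower. Without variance moderation 69 were called (62 of the 274), 46 higher and 23 lower, with 34 higher and 9 lower at over 2-fold and 1 in the lists. With array weights 1269 were called, including all 274, with 692 higher, 577 lower, 147 over 2-fold higher and 60 in the lists. The weights were 0.540, 2.02 and 0.490 for the RNAi arrays and 0.890, 1.44 and 1.65 for the WT arrays.

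When 1 array was left out, the number of calls ranged from 118 to 512, of rises from 80 to 307, of falls from 38 to 205, of rises over 2-fold from 59 to 109, of falls over 2-fold from 21 to 42 and of calls in the lists from 4 to 22. OsHMGB707 ranged from -2.22 to -2.02 and the reporter probe set from 6.06 to 6.91. Leaving out an array also removes a degree of freedom. The other causes were not tested. Signals under the lower quartile of the array give no fold, and presence calls were not used.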
